A study of Mus musculus with 6 samples.

Results

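Pparg, Cd36, Lpl, Fabp4 and Rbp4 are 5 genes of lipid uptake and lipid or retinol carriage that macrophages can express. They were followed across 6 Affymetrix arrays of mouse bone marrow cells in which Rad21, a core subunit of the cohesin ring, had been targeted by shRNA. The 5 genes were chosen by name with their differences between Rad21 shRNA and empty-vector arrays already known. Those differences are therefore given as a description, and calls of the members in the fit over all genes are counted but not read as support. They are represented by every probe set that the platform annotation pairs with that gene alone, which gave 11 probe sets of the 20380 with a single gene, and 5 genes of the 12393 measured. Pparg and Rbp4 had 1 probe set each, Lpl 2, Cd36 3 and Fabp4 4.

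All 3 groups were cultures of C57/BL6 marrow from animals aged 6 to 8 weeks, depleted of lineage-positive cells and infected with lentivirus for 24 h. Cells of every group then went through overnight puromycin at 1 µg/mL and a sort for live cells, and grew for 7 days in methylcellulose with cytokines from a density of 10000 cells/mL, when RNA was taken. The groups differ in the virus, which was an empty vector, Rad21 shRNA1 or Rad21 shRNA2, with 2 arrays each. The control virus carried no shRNA, and no group here carried an shRNA against another gene. The cultures hold mixed myeloid cells, so fewer cells of a type and less RNA per cell cannot be told apart in any value below. Whether replicates came from different cultures or animals is not stated in the labels, and the p-values below reflect the array-to-array spread alone, part or all of which may be technical.

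PPARγ, the protein of Pparg, is a nuclear receptor that binds DNA together with a retinoid X receptor and is activated by fatty acids and their derivatives. It is best known as the master regulator of fat cells, and in macrophages, above all those of the lung, it drives genes for taking up and handling lipid. Cd36, Lpl and Fabp4 are textbook PPARγ targets. CD36 is a membrane receptor for long-chain fatty acids and oxidized lipoproteins, lipoprotein lipase (Lpl) is a secreted enzyme that frees fatty acids from lipoprotein triglyceride, and FABP4 carries fatty acids within the cytosol. RBP4 is the secreted carrier of retinol in blood, made mainly by liver and also by fat.

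Because 3 of these genes are known PPARγ targets, the RefSeq promoters of the members were read for the letters such a receptor binds. The promoter table (GRCm38.p6) gives 250 bases before and 50 bases after each start site, and it held 6 promoters for 3 of the 5 genes, Pparg, Cd36 and Rbp4. Each sequence is printed 5′ to 3′ along the gene's strand, and capitals mark every match, on either strand, to the motifs searched. Where a gene has several promoters, the one with the most matches is shown, so the number of capitals is set by that choice. The stretches shown are chr6:115362099-115362398 on the plus strand for Pparg, chr5:17835847-17836146 on the minus strand for Cd36 and chr19:38124762-38125061 on the minus strand for Rbp4.
Pparg: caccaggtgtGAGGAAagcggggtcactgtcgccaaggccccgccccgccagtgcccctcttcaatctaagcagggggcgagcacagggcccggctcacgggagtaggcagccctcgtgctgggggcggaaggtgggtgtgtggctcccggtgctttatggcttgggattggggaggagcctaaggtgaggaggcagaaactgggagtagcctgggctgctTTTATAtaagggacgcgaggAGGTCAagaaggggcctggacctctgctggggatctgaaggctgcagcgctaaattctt
Cd36: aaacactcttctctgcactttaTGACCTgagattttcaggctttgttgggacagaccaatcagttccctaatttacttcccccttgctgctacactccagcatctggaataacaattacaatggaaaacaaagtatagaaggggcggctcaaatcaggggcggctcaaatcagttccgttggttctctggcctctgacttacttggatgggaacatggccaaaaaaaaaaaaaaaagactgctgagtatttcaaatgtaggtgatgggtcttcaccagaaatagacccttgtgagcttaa
Rbp4: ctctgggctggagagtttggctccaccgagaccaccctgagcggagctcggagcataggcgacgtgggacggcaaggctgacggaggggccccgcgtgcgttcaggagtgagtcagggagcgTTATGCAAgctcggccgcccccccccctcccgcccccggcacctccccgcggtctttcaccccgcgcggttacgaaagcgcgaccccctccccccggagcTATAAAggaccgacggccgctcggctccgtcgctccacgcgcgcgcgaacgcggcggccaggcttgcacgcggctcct
The motifs were the nuclear receptor core AGGTCA, the same 6 letters repeated in one direction with 1 base between (the site of a PPAR and RXR pair), the PU.1 core GAGGAA, the C/EBP core TTGCNNAA and the TATA box TATAAA. In the Pparg promoter shown the capitals are GAGGAA beginning 240 bases upstream of the start, TATAAA on the opposite strand beginning 29 bases upstream, and AGGTCA beginning 9 bases upstream. At the TATAAA match the gene's own strand reads TTTATATAAG. It thus also holds TATATAAG, which the exact search does not match, so no direction is read from this match. The Cd36 promoter holds 1 nuclear receptor core, on the opposite strand, 228 bases upstream. The Rbp4 promoter shown holds a C/EBP core on the opposite strand 128 bases upstream and a TATA box 28 bases upstream. Of the other 2 Pparg promoters, one holds AGGTCA alone, 28 bases upstream, and the other 2 C/EBP cores, and the other Rbp4 promoter holds no match. None of the 6 member promoters holds the direct repeat, which only 13 of 32851 promoters of this length hold (0.0396%). The nuclear receptor core occurs in 16.3% of them, the PU.1 core in 28.3%, the C/EBP core in 10.8% and the TATA box in 13.6%. A match is a description of these letters and not evidence that a factor binds there. The absence of so rare an exact repeat from 6 promoters is likewise not evidence that no PPAR and RXR pair binds.

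Median intensities lay between 100.2 and 104.9, but RMA normalizes the arrays to each other, so this closeness is set by the processing. Rad21 itself read 11.14 and 10.49 on the log2 scale on the empty-vector arrays and between 9.11 and 9.63 on the 4 shRNA arrays. Empty-vector replicate 1 stood apart: the 3′ minus 5′ difference of the Gapdh control probe sets was 2.42 log2 units there and -0.078 to 0.017 on the other 5 arrays. The empty-vector arrays lay 0.321 log2 units from their mean (root mean square over genes), compared with 0.151 for shRNA1 and 0.141 for shRNA2. Differences against empty vector are therefore also given without each empty-vector array.

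Pparg, the receptor, read 7.87 and 8.98 on the log2 scale on the empty-vector arrays, 7.09 and 7.96 with shRNA1, and 5.64 and 6.11 with shRNA2, always in the order replicate 1 and replicate 2. The shRNA2 arrays lay below all 4 others, while one shRNA1 array lay between the empty-vector arrays. The difference from empty vector was -0.89 ± 0.45 (SE of the limma fit, n = 2 and 2) for shRNA1 and -2.55 ± 0.45 for shRNA2, or 53.8% and 17.0% of the empty-vector level.

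Cd36, the fatty acid receptor, read 10.53 and 11.73 with empty vector, 9.22 and 9.41 with shRNA1, and 6.94 and 7.21 with shRNA2. The 3 groups did not overlap and stood in the order empty vector, shRNA1, shRNA2. The differences were -1.82 ± 0.39 for shRNA1 and -4.06 ± 0.39 for shRNA2, or 28.4% and 6.01% of the empty-vector level.

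Lpl, the secreted lipase, read 12.91 and 13.19 with empty vector, 13.02 and 13.34 with shRNA1, and 11.42 and 11.64 with shRNA2. It was the only member whose mean with shRNA1 was not lower than with empty vector. The shRNA1 and empty-vector arrays interleaved, and their difference was 0.13 ± 0.20 with a 95% confidence interval from -0.35 to 0.62. Without empty-vector replicate 1 this difference was -0.0046, and without shRNA1 replicate 2 it was -0.02. Both shRNA2 arrays lay below the other 4, at a difference of -1.52 ± 0.20 or 35.0% of the empty-vector level.

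Fabp4, the cytosolic fatty acid carrier, read 10.42 and 10.82 with empty vector, 9.38 and 10.02 with shRNA1, and 6.21 and 6.52 with shRNA2. The groups did not overlap, and the step from shRNA1 to shRNA2 was larger than the step from empty vector to shRNA1. The differences from empty vector were -0.92 ± 0.28 and -4.26 ± 0.28, or 52.8% and 5.22% of the empty-vector level.

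Rbp4, the retinol carrier, read 10.35 and 12.80 with empty vector, 6.37 and 7.99 with shRNA1, and 4.71 and 5.62 with shRNA2. The groups did not overlap, although replicates of a group lay as far apart as 2.45 log2 units. The differences were -4.39 ± 0.90 for shRNA1 and -6.41 ± 0.90 for shRNA2, or 4.76% and 1.18% of the empty-vector level, the lowest measured difference of the 12393 genes in each contrast. The lower shRNA2 value was below that array's lower quartile of all probe sets, 4.75. No detection call was used, so whether the shRNA2 values lie above background was not tested, and their percentage and rank are those of dim values.

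**Figure D1:**
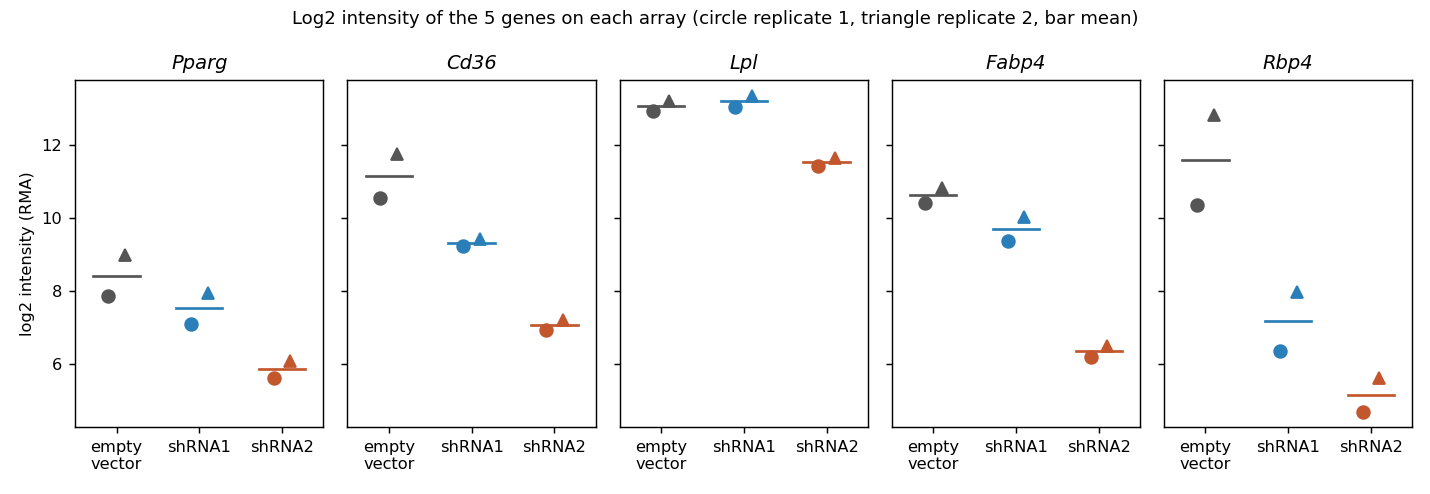
Log2 intensity (y axis) of Pparg, Cd36, Lpl, Fabp4 and Rbp4 on each array by group, with circles for replicate 1, triangles for replicate 2 and bars for the mean of the 2 arrays. Cd36, Fabp4 and Rbp4 step down from empty vector to shRNA1 to shRNA2 without overlap, while Lpl is at 12.91 to 13.34 in both of the first groups and 11.42 to 11.64 with shRNA2.

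Read over the whole table, these patterns have a background. For both shRNAs averaged and compared with empty vector, limma's moderated test at a Benjamini-Hochberg adjusted p under 0.05 called 264 genes (2.13%), 173 of them lower (1.40%), and Cd36, Fabp4 and Rbp4 were among the lower ones. For shRNA1 it called 29 genes (0.234%), 17 of them lower (0.137%), and none of the 5, with 1152 genes at an unadjusted p under 0.05. For shRNA2 it called 351 genes (2.83%), 242 of them lower (1.95%), and Cd36, Lpl, Fabp4 and Rbp4 were among the lower ones. Since these contrasts chose the members, nothing is read from these counts. They also depend on the processing. With the replicate number as a block, limma called Pparg too for both shRNAs (adjusted p = 0.0193) and for shRNA2 (0.0106), and Rbp4 for shRNA1 (0.0379). The calls for both shRNAs were lost for Fabp4 with the mean of its probe sets (limma adjusted p = 0.0709) and for Rbp4 with 16 added before log2 (0.0737). Cd36 and Rbp4 lost theirs without any single shRNA array, and Fabp4 lost its own without each of them but shRNA1 replicate 2. For shRNA2, all 4 calls were lost without either shRNA2 array. Those of Lpl (0.0638) and Rbp4 (0.0648) were lost when limma fitted only the groups compared, that of Lpl with the mean of its probe sets (0.0941), and that of Rbp4 with 16 added (0.0617). Without an empty-vector array other member calls were added instead. A fit with an array left out has a group of a single array and takes its spread from the other groups. Without an empty-vector array these are the 4 shRNA arrays. Calls in such fits, lost or added, are therefore not comparable with those of the main fit. Pparg with shRNA2 lay at the threshold (limma adjusted p = 0.0501) and was also called without the dimmest genes, with median centring and with an intensity trend. The 4 shRNA arrays all lay below both empty-vector arrays for Cd36, Fabp4 and Rbp4, as they did for 13.6% of all genes. The shRNA1 arrays alone lay below both for the same 3 members, against 19.5% of genes, and the shRNA2 arrays alone for all 5 members, against 22.6%. The full order without overlap, shRNA2 below shRNA1 below empty vector, held for those 3 members and for 4.73% of genes.

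The size of the differences depended on which empty-vector array was the reference. For the mean of both shRNAs, the Rbp4 difference was -5.40 ± 0.78 with both, -6.62 without replicate 1 and -4.18 without replicate 2. The Cd36 difference was -2.94 ± 0.34, and -3.54 and -2.34 with the same arrays left out. Pparg gave -1.72 ± 0.39, and -2.28 and -1.17. Empty-vector replicate 2 was the higher of the pair for every member, so each difference was smaller without it. Fabp4 and Lpl depended on it less in log2 units, with -2.59 ± 0.24 against -2.79 and -2.39 for Fabp4, and -0.69 ± 0.17 against -0.83 and -0.55 for Lpl. The direction was the same in each of these. For shRNA2 alone, the differences without empty-vector replicate 1 were -3.11 for Pparg, -4.66 for Cd36, -1.65 for Lpl, -4.46 for Fabp4 and -7.63 for Rbp4, and without replicate 2 they were -2.0 for Pparg, -3.46 for Cd36, -1.38 for Lpl, -4.06 for Fabp4 and -5.18 for Rbp4. For shRNA1 alone, the differences without empty-vector replicate 1 and without replicate 2 were -1.45 and -0.34 for Pparg, -2.41 and -1.22 for Cd36, -0.0046 and 0.27 for Lpl, -1.12 and -0.72 for Fabp4, and -5.62 and -3.17 for Rbp4. They also moved with the shRNA1 arrays, and without shRNA1 replicate 1 they were -0.46 for Pparg and -0.60 for Fabp4. How far the 3′ to 5′ gap of replicate 1 enters these values was not tested.

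**Figure D2:**
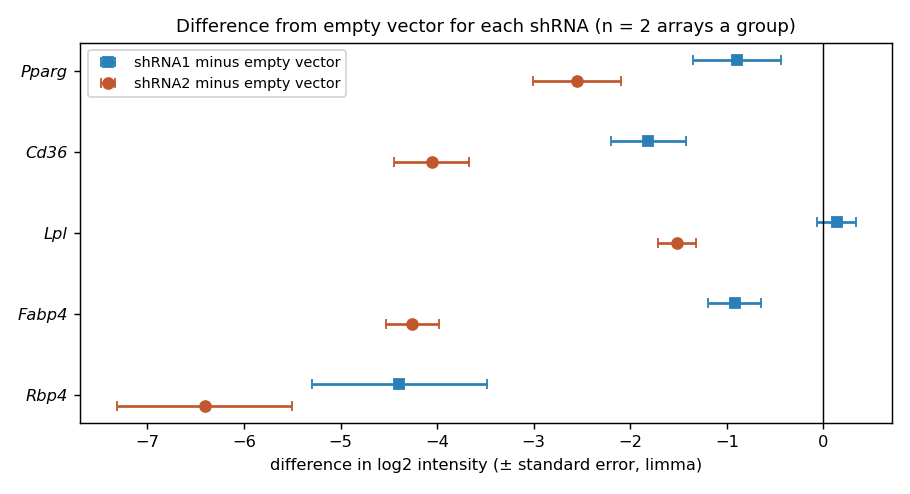
Difference in log2 intensity from empty vector (x axis, ± the standard error of the limma fit) for each gene, with squares for shRNA1 and circles for shRNA2, from 2 arrays a group. The shRNA2 point lies left of the shRNA1 point for all 5 genes, and only the shRNA1 point of Lpl, at 0.13, lies right of 0.

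The comparison of the shRNAs with each other does not use the empty-vector level. All 5 genes were lower on both shRNA2 arrays than on both shRNA1 arrays, an order that 17.7% of all genes showed. Lpl was 3.14-fold lower with shRNA2 (difference shRNA1 minus shRNA2 1.65 ± 0.20, 95% confidence interval 1.17 to 2.13), Fabp4 10.1-fold (3.34 ± 0.28, 2.66 to 4.01) and Cd36 4.73-fold (2.24 ± 0.39, 1.29 to 3.19). Pparg was 3.16-fold lower (1.66 ± 0.45, 0.54 to 2.77), and Rbp4 4.04-fold lower with an interval that includes 0 (2.01 ± 0.90, -0.21 to 4.24). These intervals are for each gene alone and are not adjusted for the number of genes. They come from the fit without a replicate block, so offsets between replicates widen them. For Rbp4, replicate 1 minus replicate 2 was -1.62 with shRNA1 and -0.90 with shRNA2.

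In the limma fit of all 6 arrays none of the 5 differences between the shRNAs passed the threshold, and neither did any other gene (0 called, 0%), with 606 genes at an unadjusted p under 0.05. The adjusted p was 0.204 for Fabp4 and for Lpl, 0.320 for Cd36, 0.674 for Pparg and 0.999 for Rbp4. Fabp4 had the smallest unadjusted p of the 12393 genes in this contrast, and Lpl the 9th smallest. A fit of the 4 shRNA arrays alone, which leaves out the wider spread of the empty-vector arrays, called 44 genes (0.355%), all of them lower with shRNA2. Fabp4 (adjusted p = 0.0363, SE 0.24), Cd36 (0.0363, SE 0.15) and Lpl (0.0403, SE 0.16) passed in this fit, and Pparg (0.136) and Rbp4 (0.271) did not. The call of a difference between the shRNAs thus rests on which arrays estimate the spread. The members were chosen with earlier results of these arrays known, so the calls are not independent support.

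The probe sets of a gene did not all give the same size of difference. For Cd36 each of the 3 probe sets separated the 3 groups without overlap. Their differences were -2.94, -2.95 and -3.05 for the mean of both shRNAs, and -1.82, -1.84 and -2.42 for shRNA1, the last value of each being that of 1450884_at. Between the shRNAs they were 2.24, 2.21 and 1.27 ± 0.16, so that the 4.73-fold difference was not shared by 1450884_at. The dimmest Cd36 probe set, 1450884_at, read 7.77 and 7.68 with empty vector, 5.39 and 5.23 with shRNA1, and 3.92 and 4.15 with shRNA2. Both shRNA2 values were below those arrays' lower quartiles of all probe sets, 4.75 and 4.84. Its smaller step between the shRNAs thus ends at dim values. 1450884_at differed between the empty-vector arrays by 0.09 log2 units, whereas the brightest differed by 1.20, so the low value of empty-vector replicate 1 was not shared by all probe sets of this gene.

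For Lpl the second probe set, 1431056_a_at, read 10.35 and 12.10 with empty vector, 11.75 and 12.29 with shRNA1, and 9.67 and 9.75 with shRNA2. Empty-vector replicate 1 was 1.76 log2 units below replicate 2 there, against 0.28 on the brighter probe set. The shRNA2 difference was -1.51 ± 0.56 there, next to -1.52 on the brighter one. The shRNA1 difference was 0.80 ± 0.56 on the second.

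For Fabp4, 1451263_a_at followed the brightest probe set, with 10.31 and 10.61 for empty vector, 9.08 and 9.75 for shRNA1, and 5.92 and 6.21 for shRNA2. The other Fabp4 probe sets were dim and showed smaller steps. 1425809_at read 5.50 and 7.01, 5.08 and 6.13, and 4.78 and 5.04 in the same order, and 1424155_at read 4.21 and 5.90, 3.51 and 4.66, and 3.24 and 3.74. On these, shRNA1 and shRNA2 differed by 0.70 ± 0.57 and 0.59 ± 0.64, compared with 3.34 ± 0.28 on the brightest. With the mean of all 4 probe sets in place of the brightest, the Fabp4 difference between the shRNAs was 1.99.

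**Figure D3:**
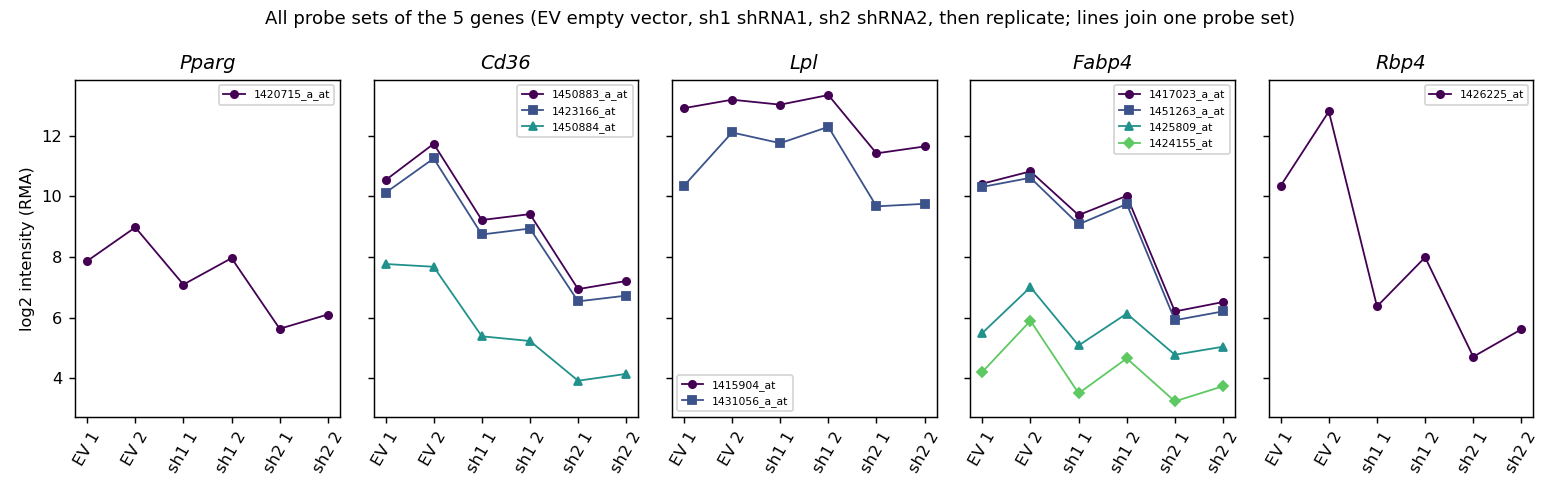
Log2 intensity (y axis) of all 11 probe sets of the 5 genes on the 6 arrays (x axis, EV for empty vector, sh1 for shRNA1, sh2 for shRNA2, each followed by the replicate number), with a line joining the values of a probe set. The 3 Cd36 probe sets each step down from group to group, with 1450884_at alone in not being lower on empty-vector replicate 1 than on replicate 2, while the dimmest Fabp4 probe sets, between 3.24 and 7.01, show smaller steps than the brighter ones.

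The neighbouring pathway was read from 8 gene lists, with 138 measured genes between them, none of which is a member. For the mean of both shRNAs, 2 rose and 6 fell in limma's test, or 5.80% against 2.13% of all genes. For shRNA2 alone, 1 rose and 14 fell, or 10.9% against 2.83%, and for shRNA1 none passed. Both shRNA2 arrays lay below both shRNA1 arrays for 49 of the 138, or 35.5% against 17.7% of all genes. The lists were chosen with earlier results of these arrays known, which could itself raise these shares. They are a description, and nothing is read from them. The counts depend on single arrays: for both shRNAs and for shRNA2 alone they rose without either empty-vector array and fell without any shRNA array. Such fits have a group of a single array and take their spread from the other groups, so their counts are not comparable with those above. The 8 calls for both shRNAs were each lost in 3 to 9 of the 13 or 14 alternatives run.

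Among the 15 measured PPAR and RXR nuclear receptors and coregulators, 1 fell and none rose for the mean of both shRNAs, with a median difference of -0.12 against -0.02 for all genes. It was Ncoa3, a nuclear receptor coactivator (-1.11 ± 0.17, limma adjusted p = 0.044, and 0.058 with the replicate block). With shRNA2 alone Rxra, the retinoid X receptor that can pair with PPARγ, also fell (-1.18 ± 0.19, limma adjusted p = 0.040). Rxra is named after its values were seen, as are the genes named below for shRNA2 alone.

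Of the 19 cytokine receptors and factors upstream of Pparg, 1 fell and none rose, with a median of -0.13. Egr2, a transcription factor of alternatively activated macrophages, differed by -1.57 ± 0.17 (limma adjusted p = 0.018). With shRNA2 alone, Egr2 (-2.20 ± 0.20) and the C/EBP family member Cebpb (-1.25 ± 0.16, limma adjusted p = 0.025) fell.

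Of the 20 measured known PPAR target genes, limma called 0 for both shRNAs, with 4 at an unadjusted p under 0.05 and a median of -0.09. Those with the smallest p were Tgm2, a transglutaminase (-1.15 ± 0.21, limma adjusted p = 0.060), and Abcg1, a cholesterol exporter (-1.15 ± 0.25, 0.088). Both fell with shRNA2 alone, Tgm2 at -1.68 ± 0.24 and Abcg1 at -1.75 ± 0.28 (limma adjusted p = 0.030 and 0.039). The remaining 18 did not pass with either shRNA or their mean, among them Arg1, an arginase of alternatively activated macrophages, at -3.76 ± 1.00 with shRNA2 (limma adjusted p = 0.130).

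Of 18 other fatty acid binding proteins, transporters and acyl-CoA synthetases, 1 rose and 1 fell for both shRNAs, with a median of -0.03. Got2, a mitochondrial aminotransferase also described as a fatty acid binding protein of the plasma membrane, rose (0.77 ± 0.12, limma adjusted p = 0.044, and 0.057 with the replicate block). Fabp7, a paralog of Fabp4 best known from brain, fell (-0.97 ± 0.14, limma adjusted p = 0.039). It was dim on every array. Its values were 4.37 and 4.22 with shRNA1 and 3.59 and 3.86 with shRNA2. All of these lay below those arrays' lower quartiles of all probe sets, 4.74 to 4.84. The empty-vector values lay only slightly above theirs. Whether Fabp7 was above background was not tested. The Fabp7 call was lost with the replicate block (limma adjusted p = 0.052), and with 16 added before log2 the difference was -0.56 and did not pass (0.067). Cav1, the caveolae protein, fell with shRNA2 alone (-1.79 ± 0.20, limma adjusted p = 0.016) and differed by -0.09 with shRNA1.

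Of 14 other lipases and lipase partners, 1 fell, with a median of 0.14. Mgll, which cleaves monoacylglycerols, differed by -2.80 ± 0.42 for both shRNAs (limma adjusted p = 0.040), and by -1.81 with the mean of its probe sets, where it did not pass.

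Of 15 lipoprotein and scavenger receptors, 1 rose and 2 fell for both shRNAs, with a median of -0.24. The high-density lipoprotein receptor Scarb1 rose (0.86 ± 0.14, limma adjusted p = 0.048). The very-low-density lipoprotein receptor Vldlr (-1.51 ± 0.22, limma adjusted p = 0.036) and the scavenger receptor Marco (-2.09 ± 0.32, limma adjusted p = 0.041, and 0.051 with the replicate block) fell. With the mean of its probe sets, Vldlr differed by -0.89 and did not pass. With shRNA2 alone 5 fell, which were Vldlr, Marco, Msr1 (-1.67 ± 0.20), Mrc1 (-2.64 ± 0.36) and Colec12 (-1.98 ± 0.28), and Scarb1 did not pass. Msr1 and Colec12 are scavenger receptors and Mrc1 is the mannose receptor. Msr1 differed by 0.01 with shRNA1 and Colec12 by 0.80.

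Of 21 lipid droplet, esterification and efflux genes limma called 0 for both shRNAs, with 7 at an unadjusted p under 0.05 and a median of -0.03. Dgat2, which makes triglyceride, differed by 1.38 ± 0.27 (limma adjusted p = 0.073, and 0.026 with the replicate block). Abcg1 was the only gene of this list called with shRNA2. Of 20 other retinol carriers, enzymes and receptors limma called 0 for both shRNAs and 0 for either alone, with 3 at an unadjusted p under 0.05 for both and a median of -0.02. The retinol dehydrogenase Rdh12 (0.74 ± 0.20, limma adjusted p = 0.156) and Dhrs3 (-0.78 ± 0.24, 0.195), which reduces retinal, had the smallest p there.

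**Figure D4:**
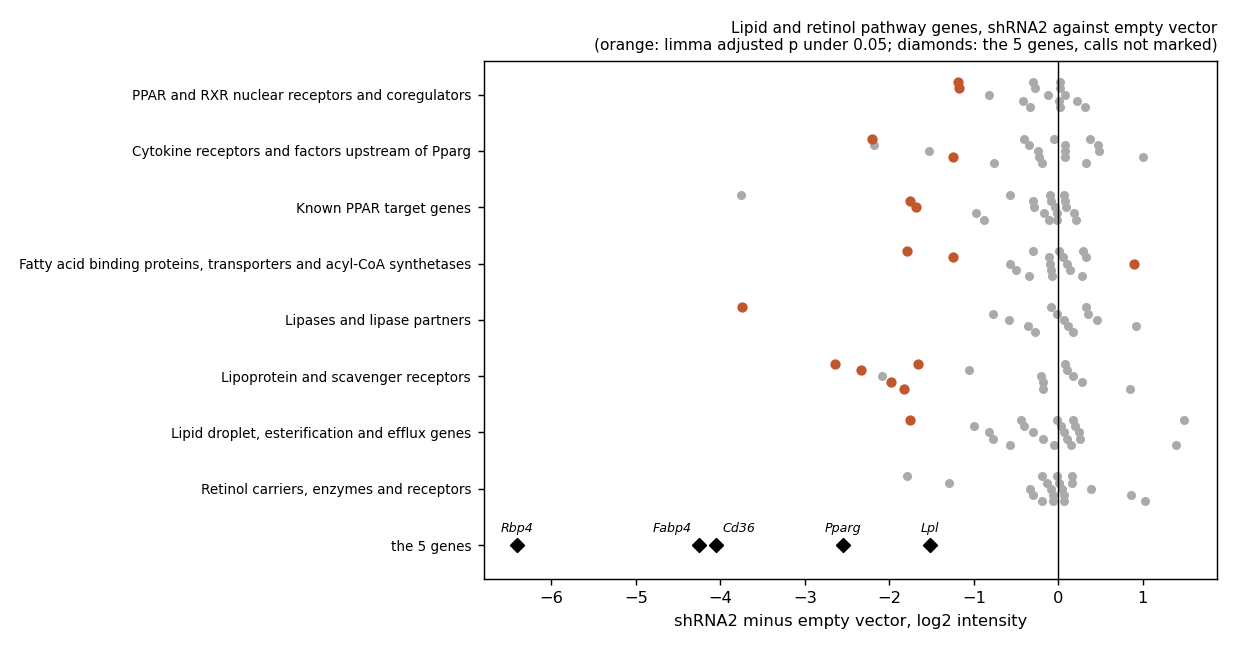
Difference in log2 intensity for shRNA2 minus empty vector (x axis) of every measured gene in the 8 pathway lists (rows), with orange points for genes called by limma and grey points for the rest, and diamonds for the 5 genes, whose calls are not marked. Most pathway genes lie near 0, and the called ones lie left of it except Got2.

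Several cell types can hold these RNAs, and their markers moved differently from one another. General monocyte and macrophage markers, led by Lyz2 and Ctss, had a list mean of 8.23 to 8.81 log2 units on the empty-vector arrays, 8.85 to 8.89 with shRNA1 and 8.29 to 8.33 with shRNA2, and 1 of 18 rose (Fcgr1, 2.51 ± 0.27) and none fell for both shRNAs. Markers of lung-type macrophages, led by Chil3 and Ctsk, averaged 8.41 to 8.90, 7.85 to 8.21 and 6.76 to 6.91. This list mean stood in the same order as Cd36, Fabp4 and Rbp4. For both shRNAs 3 of 12 fell (Plet1, Cdh1 and Marco), and the list median was -0.77. Not every gene kept the order of the mean. Siglecf was higher with each shRNA (0.28 ± 0.30 and 0.40 ± 0.30), as was Cidec (0.18 ± 0.14 and 0.08 ± 0.14). Cidec lay below the lower quartile of all probe sets on every array. Chil3, the brightest of the list, overlapped between empty vector (13.92 and 14.06) and shRNA1 (13.76 and 13.93). Car4 and Il1rn were higher with shRNA1 (0.71 ± 0.56 and 0.57 ± 0.44) and lower with shRNA2 (-3.26 ± 0.56 and -0.66 ± 0.44). Dendritic cell markers, led by H2-Aa and Cd74, averaged 7.02 to 7.15, 6.38 to 6.45 and 6.13 to 6.20, and 2 of 13 fell (Ccl17 and Ccl22). Over all 12393 genes, 91 were called higher and 173 lower for both shRNAs. The marker lists were chosen with earlier results known, and nothing is read from their counts. The part of these cell types in the members' differences was not tested.

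Adipocytes, endothelial cells and hepatocytes are the best known sources of Fabp4, Lpl, Cd36 or Rbp4 in other tissues. Their marker lists averaged 5.10 to 5.42 (11 adipocyte genes, led by Lpin1 and Lipe), 5.66 to 6.06 (14 endothelial genes, led by Vwf and Pecam1) and 4.76 to 5.07 (10 hepatocyte genes, led by Ttr and Apoa1) over all 6 arrays, with no gene called for both shRNAs. The adipocyte genes Adipoq, Lep, Cidec and Ucp1, the endothelial genes Cdh5, Tie1 and Emcn, and the hepatocyte genes Apob, Fgb, Fga and Hpx lay below the lower quartile of all probe sets on every array.

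Among other blood lineages, megakaryocyte markers, led by Pf4 and Ppbp and of interest because platelets carry CD36, averaged 9.81 to 9.98, 8.55 to 9.44 and 8.65 to 8.65, with 1 of 9 falling (Clec1b). Mast cell and basophil markers, led by Cpa3 and Cma1, averaged 10.7 to 11.2, 9.38 to 10.1 and 9.55 to 9.65, with 3 of 13 falling (Kit, Fcer1a and Mcpt2). Neutrophil markers, led by S100a9 and S100a8, averaged 9.0 to 9.56, 11.1 to 11.5 and 11.5 to 11.6, with 6 of 15 rising. This was the list with the most genes called, where 91 of all 12393 genes were called higher and 173 lower. Erythroid markers, led by Tfrc and Gata1, averaged 7.10 to 8.87, 6.95 to 6.99 and 6.62 to 6.95. The 8.87 was that of empty-vector replicate 1, where every measured gene of this list was higher than on replicate 2. Slc4a1 read 11.71 there against 8.14, and Rhag 9.38 against 6.06. Whether the empty-vector arrays held different shares of cell types was not tested. Markers of haematopoietic cells in general, led by Laptm5 and Tyrobp, averaged 10.5 to 11.3, 11.1 to 11.2 and 11.1 to 11.2, with Kit the 1 of 12 that fell. Of the 11 marker lists, the lung-type macrophage and dendritic cell lists were those whose mean stood in the order empty vector, shRNA1, shRNA2 without overlap.

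The genes whose profile over the 6 arrays lay nearest to each member were found by root mean square distance of log2 values centred on each gene's mean. For Lpl they were Msr1 (0.09), Spint1, an inhibitor of serine proteases (0.10), and Nnmt, nicotinamide N-methyltransferase (0.18), against a spread of 0.76 of Lpl around its own mean. Msr1 read 9.97 and 10.31, 9.96 and 10.34, and 8.46 and 8.5, so that it too interleaved between empty vector and shRNA1. For Pparg they were Slamf7 (0.18), the lysosomal protease Lgmn (0.20) and Mrc1 (0.21), against its own spread of 1.14. For Cd36 they were Mgll (0.26), cholesterol 25-hydroxylase Ch25h (0.30) and the apoptotic cell receptor Mertk (0.33), against 1.70.

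Fabp4 and Rbp4 had no such close neighbours. For Fabp4 they were Fstl1 (0.41), Cd36 (0.54) and Pdpn (0.61), against a spread of 1.84. For Rbp4 they were the collagenase Mmp13 (0.98), the cadherin Cdh1 (1.12) and Plet1 (1.17), against 2.82. Among the members themselves Cd36 and Fabp4 were nearest to each other at 0.54, followed by Pparg and Lpl at 0.57, while Lpl and Rbp4 were farthest apart at 2.35. Distance here includes size, so a gene with larger steps has fewer near neighbours.

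**Figure D5:**
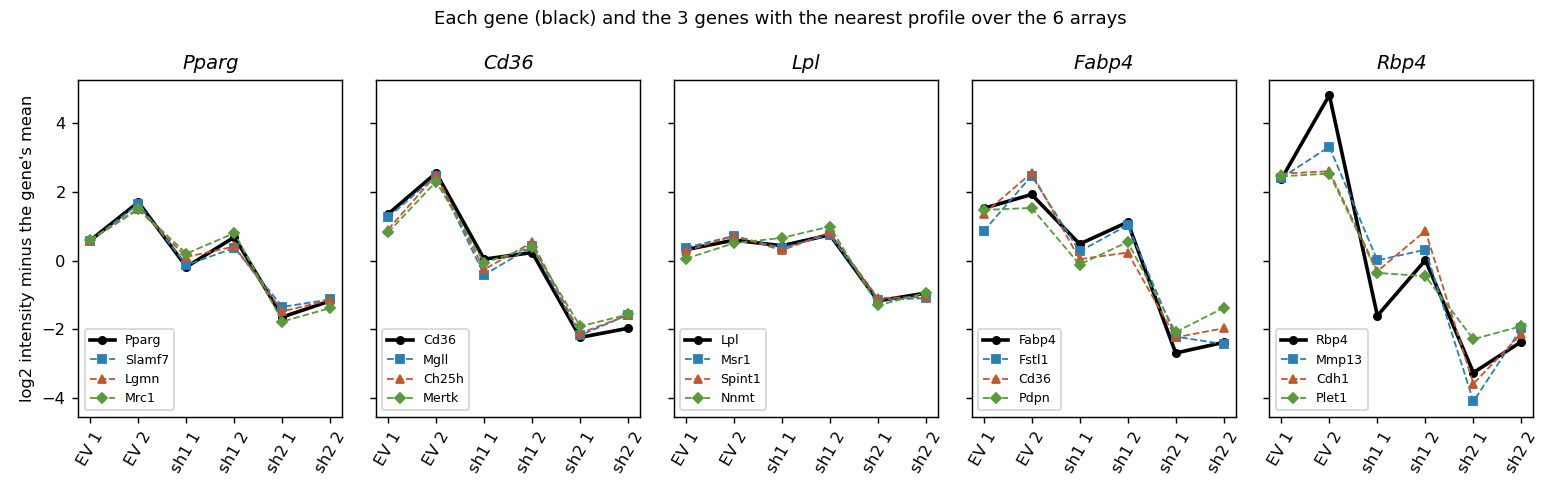
Log2 intensity minus the gene's own mean (y axis) on the 6 arrays (x axis, EV for empty vector, sh1 for shRNA1, sh2 for shRNA2, with replicate number) for each of the 5 genes (black) and the 3 genes nearest to it. Msr1 and Spint1 overlie Lpl at distances of 0.09 and 0.10, while the nearest genes to Rbp4 lie 0.98 or more from it.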

How the data were processed

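The deposited intensity values, 1 for each of 22690 probe sets on 6 arrays, come from the authors' RMA run, as the submitters' processing notes name it. It corrects background, quantile-normalizes arrays and summarises probes. The RMA version and the annotation's build are not given in sources used here. RMA pulls array distributions together and compresses dim differences. The values were linear, and log2 was taken with no offset. Of the probe sets, 20393 had 1 gene, 691 several and 1606 none listed, and the 20380 used are the first class without its 13 control probe sets. Each gene was represented by its brightest probe set on average, and none was filtered. The number of arrays, 2 a group, limits the precision.

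Groups and replicate numbers came from the sample titles. All 3 groups entered 1 limma fit (version 3.58.1, R 4.3.3; lmFit and eBayes, 3 residual and 2.91 prior degrees of freedom), two-sided, with Benjamini-Hochberg adjustment over 12393 genes at 0.05. Probe set values came from the same fit over the 20380 probe sets with 1 gene. The labels do not say that replicate numbers pair the arrays. Deviations of same-numbered arrays from their group means correlated at 0.20 (empty vector and shRNA1), 0.15 (empty vector and shRNA2) and 0.58 (shRNA1 and shRNA2) over genes. These correlations alone do not settle whether the numbers pair the arrays, so the main fit has no block. Its standard errors, intervals and p-values therefore count any offset shared by same-numbered arrays as spread. Values with the replicate number as a block are given where they change a call. The procedure was also run on simulated data. These gave a gene the same spread in all groups, so they do not test the wider spread of the empty-vector arrays. The members and lists were chosen with earlier results of these data known. Named were all members, up to 4 called genes of each pathway list for both shRNAs (otherwise the 2 with the smallest p), the 2 brightest genes of each marker list, and the 3 genes nearest to each member. Other named genes were chosen after their values were seen. Alternatives were a filter on the dimmest 25% of genes, 16 added before log2, the mean of a gene's probe sets, quantile normalization, median centring, an intensity trend or robust eBayes, fits of only the groups compared, the replicate block, and leaving out each array. Promoter sequences are from RefSeq (GRCm38.p6).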

Additional observations from a re-analysis of the deposited data

How the results depend on the processing

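Each member kept its direction under every alternative run for each contrast, except Lpl with shRNA1, which lay near 0 and was negative in some. Their calls did change, as given beside them. Against the main values, the number of genes called for both shRNAs (264) was 132 with 16 added before log2. For shRNA1 (29) it was 7 with 16 added, 47 with median centring, 59 with an intensity trend and 0 with only the groups compared. For shRNA2 (351) it was 209 with 16 added and 120 with only the groups compared, and for shRNA1 minus shRNA2 (0) it was 44 with only the groups compared. Leaving out each array in turn gave 3 to 3121 for both shRNAs, 0 to 2534 for shRNA1, 0 to 2941 for shRNA2 and 0 to 44 between the shRNAs. Pathway genes called for both shRNAs (8) numbered 5 without the dimmest genes, with the mean of probe sets or with a trend, 2 with 16 added and 4 with quantile normalization. For shRNA2 (15) they numbered 5 with 16 added and 1 with only the groups compared, and 0 to 39 with an array left out. The cause was not tested.

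By list, for both shRNAs, PPAR and RXR coregulators had 0 calls with 16 added, quantile normalization, a trend or the block. Known PPAR targets had 1 with median centring. Fatty acid binding and transport genes had 0 without the dimmest genes or with the block, and 1 with 16 added, the mean of probe sets, quantile normalization or a trend. Lipases had 0 with 16 added or the mean of probe sets. Lipoprotein receptors had 0 with 16 added and 1 with quantile normalization, and lipid droplet genes had 1 with the block. For shRNA2, 16 added left 0 calls for PPAR and RXR genes, PPAR targets, lipases and lipid droplet genes and 1 for lipoprotein receptors. Fitting only the groups compared left 1 for upstream factors and 0 for the other lists with calls. PPAR and RXR genes had 1 with the mean of probe sets or the block and 0 with quantile normalization or a trend, lipases had 0 with the mean of probe sets, and lipid droplet genes had 2 with the block. With an array left out, the lists for both shRNAs had 0 to 4 (PPAR and RXR), 0 to 10 (upstream), 0 to 3 (targets), 0 to 5 (fatty acid), 0 to 4 (lipases), 0 to 7 (lipoprotein), 0 to 9 (droplet) and 0 to 2 (retinol) calls, and for shRNA2 0 to 3, 0 to 7, 0 to 4, 0 to 4, 0 to 3, 0 to 8, 0 to 8 and 0 to 3.

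With the replicate block, limma called 288 genes for both shRNAs, 23 for shRNA1, 449 for shRNA2 and 0 between the shRNAs, and 7 and 18 pathway genes for both shRNAs and shRNA2. It changed the calls of Pparg, Rbp4, Ncoa3, Got2, Fabp7, Marco and Dgat2 given above and no other call of a member, or of a named pathway gene for both shRNAs. Replicate 1 lay below replicate 2 in all 3 groups for each of the 5 members and for 18.6% of genes.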
